A study of Mus musculus with 3 samples.

Results

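Expression of 10 genes for thrombospondins, matricellular proteins and elastic fiber proteins was examined in mouse ES cells by RNA-Seq. The genes were Comp, Thbs1, Thbs2, Thbs3, Postn, Sparc, Tnc, Fbln5, Fbn1 and Eln, 10 of 24421 counted genes. They were chosen by name as matrix glycoproteins, from results of these same libraries in which Comp and Fbln5 had stood out, so their direction in any of the comparisons below is a description and not a test. The cells were undifferentiated EL16.7 ES cells, a female line on an F2:129S1/CastEiJx 129S1 background. The control library came from cells transduced with a scramble shRNA lentivirus, and the KD-1 and KD-2 libraries from cells transduced with a first and a second shRNA specific for NUP153, a protein of the nuclear pore basket. All cells were grown with FBS and LIF on γ-irradiated DR4 mouse embryonic fibroblasts (MEFs), and were selected with 2 μg/ml puromycin for 2 days before RNA was extracted. Each condition had 1 library, so no spread between replicates is known and no test between conditions was made. The intervals below are exact 95% intervals that cover the counting of reads only.

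Thrombospondins are secreted glycoproteins that bind collagens, integrins, CD36 and CD47, and Thbs1 is known to activate latent TGF-β. Matricellular proteins such as periostin (Postn), tenascin C (Tnc) and osteonectin (Sparc) sit in the matrix and modulate adhesion more than they build structure. Elastic fibers have a core of elastin (Eln) on a scaffold of fibrillin microfibrils (Fbn1), and Fbln5 helps to place elastin on that scaffold. Fibroblasts are a well known source of these proteins, and ES cell cultures on MEFs can hold RNA of both cell types.

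Promoter sequences (RefSeq, GRCm38.p6) were found for 7 of the 10 genes, in 10 windows of 300 bases that run from 250 bases before to 50 bases after a start site. The windows of Postn and Fbln5 are shown because these were the lowest with KD-1 among the 7 genes, and a window of Tnc because it was the highest with KD-2 among them. The Postn window is chr3:54360857-54361156 on the plus strand, the Fbln5 window is chr12:101819070-101819369 on the minus strand and the Tnc window is chr4:64046966-64047265 on the minus strand. Each is written 5′ to 3′ on the strand of the gene, with matches to the motifs named below in capitals.
Postn: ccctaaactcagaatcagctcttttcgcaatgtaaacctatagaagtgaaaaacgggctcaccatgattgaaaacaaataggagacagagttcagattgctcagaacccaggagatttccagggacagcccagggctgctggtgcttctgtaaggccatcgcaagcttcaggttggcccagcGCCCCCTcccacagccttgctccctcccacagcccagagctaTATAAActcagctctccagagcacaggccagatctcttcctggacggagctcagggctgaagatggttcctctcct
Fbln5: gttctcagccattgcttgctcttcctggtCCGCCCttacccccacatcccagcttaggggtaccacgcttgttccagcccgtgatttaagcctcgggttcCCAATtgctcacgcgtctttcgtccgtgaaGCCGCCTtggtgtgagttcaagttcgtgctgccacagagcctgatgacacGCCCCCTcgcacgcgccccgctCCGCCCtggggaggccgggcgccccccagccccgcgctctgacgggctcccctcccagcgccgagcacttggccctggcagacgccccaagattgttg
Tnc: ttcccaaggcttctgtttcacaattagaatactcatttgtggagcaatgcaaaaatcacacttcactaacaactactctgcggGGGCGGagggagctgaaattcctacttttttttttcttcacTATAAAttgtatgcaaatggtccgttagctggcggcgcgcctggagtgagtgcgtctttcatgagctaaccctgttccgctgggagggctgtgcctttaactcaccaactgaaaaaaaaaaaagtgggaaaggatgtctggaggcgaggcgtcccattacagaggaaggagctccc

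The TATA box letters TATAAA were found on either strand in 4 of the 10 windows. These were the shown Postn window, 26 bases before the start site, and the shown Tnc window, 126 bases before it. The others were the Tnc window that is not shown and the window of Thbs2. Of all 32851 promoters in the same table, 13.6% held these letters. The GC box letters GGGCGG were found in 5 of the 10 windows and in 35.7% of all promoters. The 5 were those of Fbn1 and Thbs3, the shown window of Fbln5 and both windows of Tnc. The shown Fbln5 window held them at 221 and 48 bases before the start site, both on the complement strand. The letters CCAAT occurred in a window of Fbln5, Postn, Thbs2 and Thbs3 and in 37.4% of all promoters. AGGNGGC is part of the motif of the insulator protein CTCF. It was matched in 4 of the 10 windows and in 29.4% of all promoters. The 4 were the shown windows of Fbln5 and Postn and the windows of Fbn1 and Thbs3. The AP-1 letters TGANTCA and the TEAD letters GGAATG were in none of the 10 windows, and in 7.81% and 14.7% of all promoters. Both strands were searched for each motif, and no matches shared bases within the windows shown. The shown Fbln5 window had a GC content of 65.7% and 24 CpG. The shown Postn window had 53.0% and 5 CpG, and the shown Tnc window 47.3% and 10 CpG. The medians over all promoters were 52.7% and 7 CpG. Each of these genes also had a window that is not shown. It held 48.67% and 8 CpG for Fbln5, 40% and 4 CpG for Postn, and 54% and 16 CpG for Tnc. The Fbln5 window not shown matched none of the motifs, and the Postn window not shown had no TATA box letters. A match describes the letters of the window only.

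The libraries held 69839336 to 85258834 reads on genes. NUP153 was targeted, and Nup153 (chr13:46679905-46727940) had 27870 reads in control, 16451 with KD-1 and 11126 with KD-2. Its log2 fold change against control was -0.99 with KD-1 and -1.43 with KD-2. Of the counted genes, 16670 had an average of 10 reads or more over the libraries, and all 10 matrix genes were among them. Fold changes are log2 ratios of reads after upper-quartile scaling, with a pseudocount of 0.5 reads, and a gene is called lower or higher where it passed 1.5-fold (0.58 on the log2 scale). By this rule 5.62% of the genes were lower and 8.63% higher with KD-1 than in control, and 10.2% were lower and 17.1% higher with KD-2. The share of calls that were higher with KD-2 was 62.6%, and 82.8% where libraries were scaled by their total reads.

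All 10 matrix genes had fewer scaled reads with KD-1 than in control, and more with KD-2 than in control. With KD-1, 5 of the 10 were lower by the 1.5-fold rule (Comp, Postn, Fbln5, Tnc and Eln) and 0 were higher, where 5.62% and 8.63% of all genes were. With KD-2, 8 of the 10 were higher (all but Thbs3 and Fbn1) and 0 were lower, where 17.1% and 10.2% of all genes were. All genes here are the 16670 with an average of 10 reads or more, while the 10 genes each averaged 100 or more. Among genes with an average of 100 reads or more, 4.31% were lower and 3.76% higher with KD-1. With KD-2, 8.69% of them were lower and 13.7% higher. The median log2 fold change of the 10 genes was -0.62 with KD-1 and 0.68 with KD-2, beside 0.02 and -0.02 over all genes. Since the genes were chosen on these comparisons, nothing is read from the counts. Both comparisons share the control library. With DESeq2's size factors Thbs2 and Fbn1 also passed the fold with KD-1, which made 7. With these factors 6.875% of all genes were lower with KD-1. Thbs3 passed the fold with KD-2 under each of the 4 other scalings, which made 9. Under these 4 scalings, 18.46 to 23.65% of all genes were higher with KD-2. No other scaling turned the direction of any of the 10 genes.

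**Figure D1:**
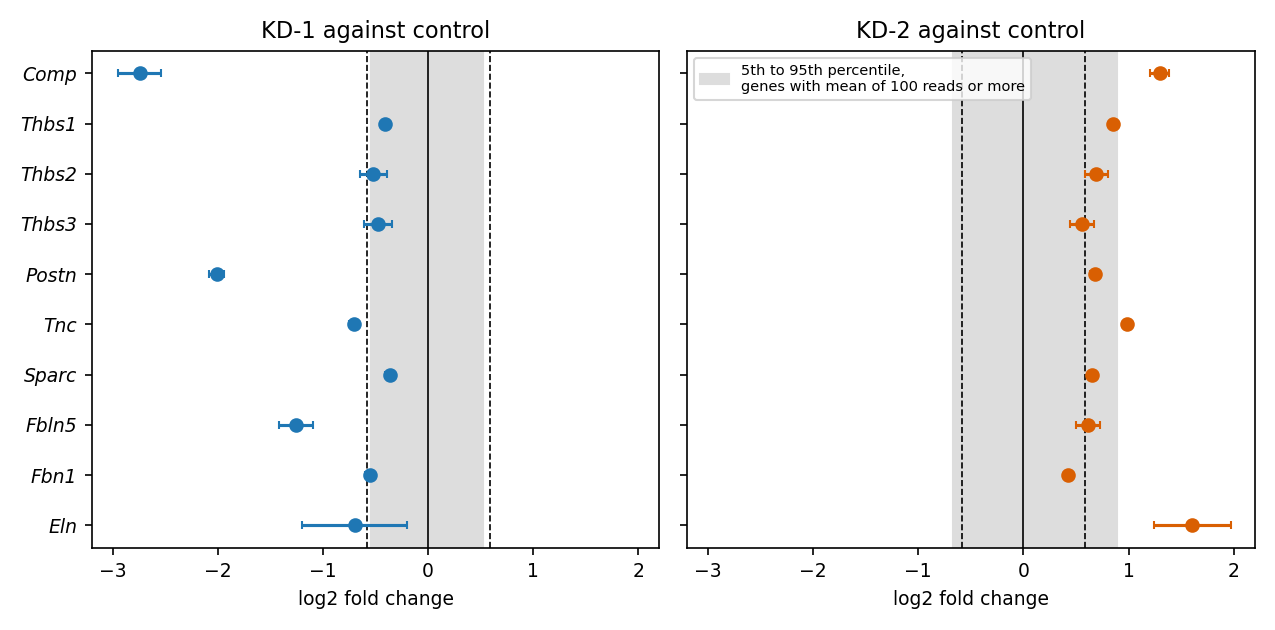
Log2 fold change against control (x axis) of each of the 10 matrix genes (y axis) with KD-1 on the left and KD-2 on the right, with 1 library per condition. Bars are exact 95% intervals of counting, dashed lines mark 1.5-fold and the grey band holds the 5th to 95th percentile of genes with an average of 100 reads or more. Each gene lies below 0 with KD-1 and above 0 with KD-2, from -2.74 for Comp to 1.60 for Eln.

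Among the thrombospondins, Comp (cartilage oligomeric matrix protein, chr8:70373558-70382066, plus strand) differed the most between libraries. It had 1340 reads in control, 234 with KD-1 and 3547 with KD-2. The KD-1 value was thus the low one, and the KD-2 value was above both others. The level of Comp in RPKM (scaled reads normalised to exon length and depth) was 6.46 in control, 0.963 with KD-1 and 15.9 with KD-2. The log2 fold change was -2.74 with KD-1 (interval -2.95 to -2.54) and 1.30 with KD-2 (interval 1.21 to 1.39). Of 16670 genes, Comp was the 11th from the lowest with KD-1 and the 369th from the highest with KD-2. When KD-1 was set against KD-2, it was the 2nd from the lowest.

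Thbs1 (chr2:118111876-118127133, plus strand), the member of the family known for activating TGF-β, was the most abundant of the 10 genes in each library. It had 20344 reads in control, 17890 with KD-1 and 39582 with KD-2, or 47.9, 36.0 and 86.6 RPKM. KD-1 was a little below control and KD-2 well above it. Its log2 fold change was -0.41 with KD-1 (interval -0.44 to -0.38), short of 1.5-fold, and 0.85 with KD-2 (interval 0.83 to 0.88).

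Thbs2 (chr17:14665500-14694235, minus strand) forms trimers as Thbs1 does. Its reads numbered 1091 in control, 890 with KD-1 and 1899 with KD-2. Here too KD-1 was the lowest library and KD-2 the highest, with log2 fold changes of -0.52 (interval -0.65 to -0.39) and 0.69 (interval 0.58 to 0.80). Thbs3 (chr3:89215180-89226837, plus strand), which forms pentamers as Comp does, had 994, 839 and 1578 reads in control, KD-1 and KD-2. Its log2 fold changes were -0.47 with KD-1 (interval -0.61 to -0.34) and 0.56 with KD-2 (interval 0.44 to 0.68). Neither passed 1.5-fold. Thbs3 shares 318 exon bases with Mtx1 on the opposite strand, which was also counted, and how reads of this stretch were assigned depends on the strand setting, which is not given in the sources used here. With KD-1 Comp was thus at 0.149 of its control level, while Thbs1, Thbs2 and Thbs3 were at 0.751, 0.696 and 0.721 of theirs.

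Among the matricellular genes, Postn (periostin, chr3:54361109-54391037, plus strand) stood lowest with KD-1. It had 6547 reads in control, 1902 with KD-1 and 11277 with KD-2, or 10.8, 2.67 and 17.2 RPKM. The KD-1 library was at 0.248 of the control level and KD-2 at 1.60 times that level. The log2 fold changes were -2.01 with KD-1 (interval -2.09 to -1.94), the 28th from the lowest of all genes, and 0.68 with KD-2 (interval 0.63 to 0.72).

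Tnc (tenascin C, chr4:63959785-64047015, minus strand), which modulates cell adhesion to fibronectin, had 10107 reads in control, 7253 with KD-1 and 21537 with KD-2. KD-1 was the lowest library and KD-2 the highest. The log2 fold changes were -0.71 with KD-1 (interval -0.75 to -0.66) and 0.98 with KD-2 (interval 0.95 to 1.02). Sparc (osteonectin, chr11:55394500-55423183, minus strand), which binds collagen, had 8919, 8110 and 15082 reads in control, KD-1 and KD-2. It was the nearest of the 10 genes to control with KD-1, at a log2 fold change of -0.37 (interval -0.41 to -0.32). With KD-2 its log2 fold change was 0.65 (interval 0.61 to 0.69).

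Among the elastic fiber genes, Fbln5 (fibulin 5, chr12:101746565-101819055, minus strand) had 960 reads in control, 471 with KD-1 and 1580 with KD-2. KD-1 was thus at 0.419 of the control level. The log2 fold change was -1.25 with KD-1 (interval -1.42 to -1.10), the 144th from the lowest of all genes, and 0.61 with KD-2 (interval 0.50 to 0.73). Fbn1 (fibrillin 1, chr2:125300594-125507993, minus strand), the main protein of microfibrils, had 9699, 7723 and 14017 reads in control, KD-1 and KD-2. It was the nearest of the 10 genes to control with KD-2, where its log2 fold change was 0.42 (interval 0.39 to 0.46). With KD-1 it was at -0.56 (interval -0.60 to -0.51), just short of 1.5-fold.

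Eln (elastin, chr5:134702593-134747323, minus strand) had the fewest reads of the 10 genes, with 83 reads in control, 60 with KD-1 and 272 with KD-2. Its level was 0.147, 0.0905 and 0.446 RPKM. With KD-2 its log2 fold change of 1.60 (interval 1.25 to 1.98) was the highest of the 10 genes, and the 158th from the highest of all genes. The KD-1 value of -0.69 had an interval from -1.20 to -0.20, which includes values short of 1.5-fold. The same holds with KD-2 for Fbln5 and, by a narrow margin, for Thbs2, which were counted among the 8 higher genes. Exons of Eln, Fbn1, Thbs1 and Tnc overlap genes on the opposite strand that were not counted, over 267, 2442, 208 and 176 bases.

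The levels of the 10 genes spanned from 0.147 to 47.9 RPKM in control. Thbs1, Sparc and Tnc were the 3 highest in each library, and Eln was the lowest in each. Below Tnc the order in control was Fbn1, Postn, Comp, Thbs3, Thbs2 and Fbln5, and the counting intervals of Thbs2 (2.23 RPKM) and Fbln5 (1.99 RPKM) overlapped. With KD-1 Comp took the 8th place, where its interval of 0.844 to 1.09 RPKM overlapped that of Fbln5, 0.759 to 0.911 RPKM. With KD-2 Comp took the 5th place at 15.9 RPKM, beside Fbn1 at 15.4 RPKM with an overlapping interval.

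Together the 10 genes held 0.0831% of the reads on genes in control (60084 reads), 0.0532% with KD-1 (45372 reads) and 0.158% with KD-2 (110371 reads). Within these reads the genes did not keep the same shares. Comp made up 2.23% in control (interval 2.11 to 2.35%), 0.516% with KD-1 (interval 0.452 to 0.586%) and 3.21% with KD-2 (interval 3.11 to 3.32%). The share of Postn was 10.9% in control, 4.19% with KD-1 and 10.2% with KD-2. Thbs1 had 33.9%, 39.4% and 35.9% of these reads, and Sparc had 14.8%, 17.9% and 13.7%.

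KD-1 and KD-2 were also set against each other. All 10 genes were lower with KD-1 than with KD-2 by more than 1.5-fold and 0 were higher, where 16.1% of all genes were lower and 13.9% were higher. The median log2 fold change was -1.48, beside 0.12 over all genes. Values ran from -4.04 for Comp to -0.98 for Fbn1. These values hold no new libraries beyond those above. The share of calls that were higher was 46.3%, and it was 32.9% with DESeq2's size factors and 25.9% with library totals.

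The wider families of these genes came from lists that were drawn up with the earlier results known. Beside the counts of these lists, 5.62% of all genes were lower and 8.63% higher with KD-1. With KD-2, 10.2% were lower and 17.1% higher. Nothing is read from the counts of such short lists. Of 4 other tenascins and thrombospondins, 1 was lower and 2 were higher with KD-1, and 0 were lower and 3 were higher with KD-2. Thbs4, a thrombospondin that forms pentamers, was at -0.73 with KD-1 and 0.95 with KD-2 on the log2 scale, with 574 reads in control. Tnxb (tenascin X) was at 0.89 and 1.00, so it was higher in both. Of 5 CCN genes with enough reads, 2 were lower with KD-1 and 2 were higher with KD-2, with none the other way. Ccn5, counted under its older symbol Wisp2, was at -0.99 and 1.22, and Ccn2 (connective tissue growth factor, counted as Ctgf) was at 0.09 and 0.28.

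Of 7 genes of the SPARC family and other matricellular genes, 1 was lower with KD-1, 0 were higher there, and 3 were higher with KD-2. Sparcl1, the nearest relative of Sparc, was at -0.65 and 0.77. Smoc1 was at 0.27 and -0.27, Smoc2 was at 0.09 and 1.06, and Spp1 (osteopontin) was at 0.31 and 0.30 with 328787 reads in control. Of 6 other fibulins, 2 were lower and 1 was higher with KD-1, and 3 were higher with KD-2. Efemp2, which is needed to build elastic fibers, was at -0.65 and 0.87. Fbln1 was at 0.64 and 0.14, and Fbln2 was at -0.07 and 0.88.

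Of 11 other microfibril and elastic fiber genes, none passed the fold with KD-1 and 6 were higher with KD-2. Emilin1, an elastic fiber glycoprotein, was at -0.50 and 1.46, and Ltbp4, which binds latent TGF-β, was at 0.10 and 0.26. Of 12 thrombospondin receptors and partners, 1 was higher with KD-1 and 6 were higher with KD-2, with none lower. Cd36, a receptor of Thbs1, was at 0.65 and 0.88, and Itgb1 (integrin β1) was at -0.44 and 0.19. Itgb3 was at 0.20 and -0.39, and Tgfb3 was at -0.16 and 0.99. The medians of these lists with KD-1 ranged from -0.44 for the CCN genes to 0.24 for the SPARC family and other matricellular genes, all above the -0.62 of the 10 matrix genes. With KD-2 they ranged from 0.30 for the SPARC family and other matricellular genes to 0.86 for the other tenascins and thrombospondins. That list and the microfibril and elastic fiber list (0.77) were above the 0.68 of the 10 matrix genes, and the other 4 lists were below it. No list median changed sign with 4 other scalings. The counts did move: over the scalings, 2 to 4 of the CCN genes, 6 to 9 of the receptors and partners, 6 to 8 of the microfibril genes and 3 to 4 of the other tenascins and thrombospondins were higher with KD-2. Likewise, with KD-1, 1 to 2 of the other tenascins and thrombospondins were lower. In the same comparison 0 to 1 of the fibulins and 0 to 1 of the receptors and partners were higher. Over all genes and the same scalings, 17.08 to 23.65% were higher with KD-2. With KD-1, 5.393 to 6.875% were lower and 7.295 to 8.98% were higher.

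**Figure D2:**
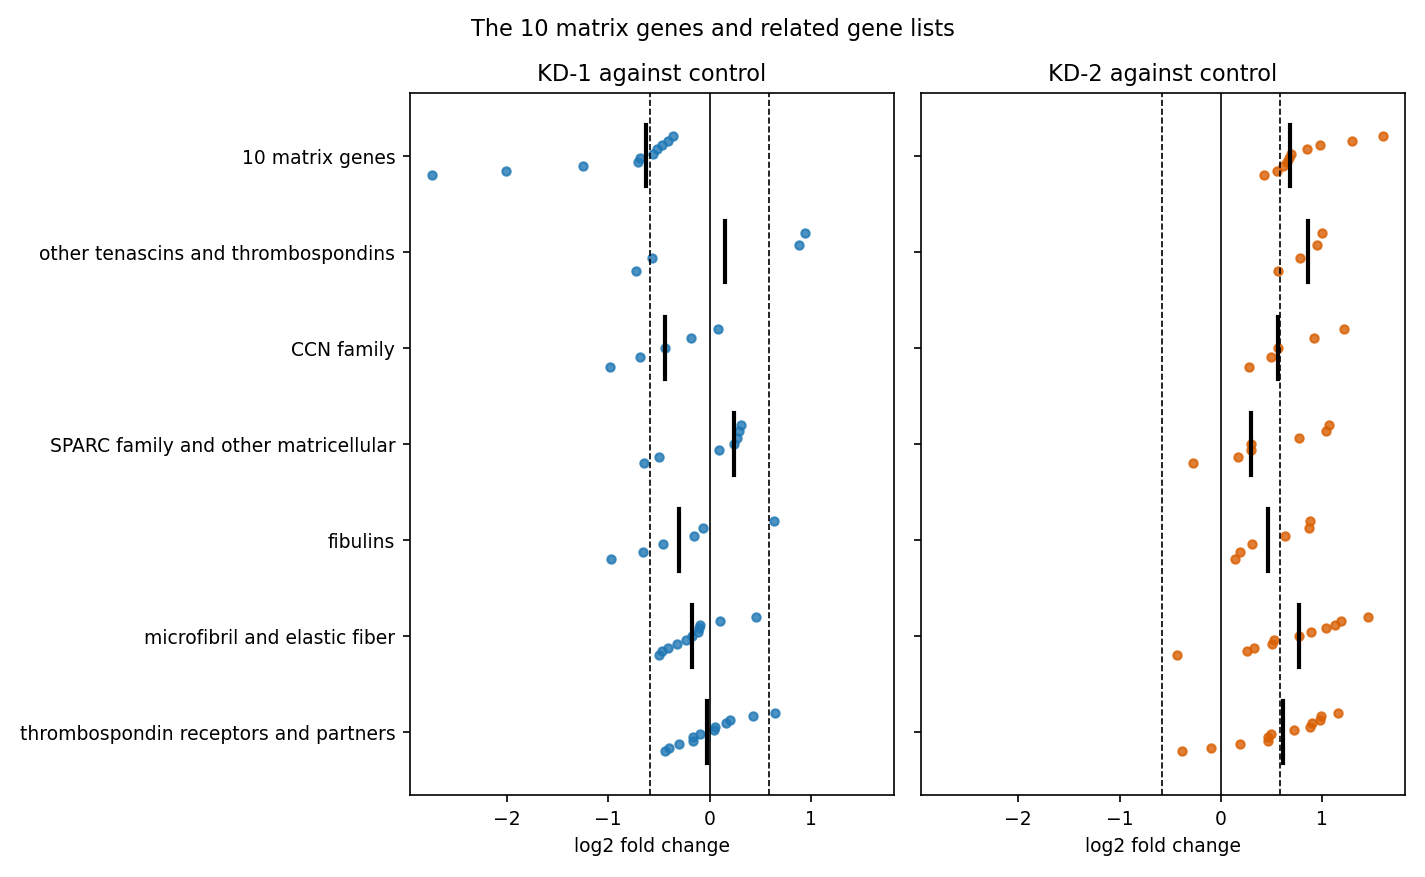
Log2 fold change against control (x axis) of each gene with an average of 10 reads or more in the 10 matrix genes and in 6 related lists (y axis), with KD-1 on the left and KD-2 on the right. Points are genes, black bars are list medians and dashed lines mark 1.5-fold. With KD-1 the median of the 10 matrix genes is -0.62 and that of the microfibril and elastic fiber list is -0.17, and with KD-2 they are 0.68 and 0.77.

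Since the ES cells were grown on MEFs, markers of both cell types were read beside the 10 genes. Of 13 fibroblast markers, 7 were lower and 0 higher with KD-1, and 12 were higher and 0 lower with KD-2. For this and each marker list below, the shares over all genes with KD-1 were 5.62% lower and 8.63% higher. With KD-2 they were 10.2% lower and 17.1% higher. Their summed level was 1453 RPM (scaled reads normalised to depth alone) in control, 850 with KD-1 and 2601 with KD-2, and the summed level of the 10 matrix genes was 860, 554 and 1466. The median log2 fold change of the fibroblast markers was -0.64 with KD-1 and 0.79 with KD-2, beside -0.62 and 0.68 for the 10 genes. Col3a1, the most abundant of the markers, was at -1.33 and 0.96, Lum was at -1.44 with KD-1, Col6a3 at 0.08 with KD-1, Thy1 at 0.37 with KD-2 and Twist2 at 1.30 with KD-2. The part of fibroblast RNA in the values of the 10 genes was not tested. In such bulk libraries, fewer cells of a type and less RNA per cell cannot be told apart.

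Per unit of the summed fibroblast markers, the 10 genes were at 0.592 in control, 0.652 with KD-1 and 0.564 with KD-2. Col3a1 alone held 782 of the 1453 RPM in control, 312 of the 850 with KD-1 and 1515 of the 2601 with KD-2. Without it, a setting added after seeing the data, the 10 genes were at 1.28, 1.03 and 1.35 per unit of the other markers, so the direction against control turned for both knockdowns. Per unit of the summed myofibroblast markers they were at 11.9, 17.6 and 11.6. Per unit of the summed ES cell markers, they were at 0.166, 0.0980 and 0.383. Comp (-2.74) and Postn (-2.01) were lower with KD-1 than the lowest of the fibroblast markers, Lum at -1.44. All 4 myofibroblast markers were lower with KD-1 and 3 were higher with KD-2, with a summed level of 72.3, 31.5 and 127 RPM. Acta2 (smooth muscle actin), the most abundant of them, was at -1.52 and 0.81, Myl9 at -0.70 and 0.98, and Tagln at -0.77 and 0.48. Over the scalings, 7 to 8 of the fibroblast markers were lower with KD-1 and 3 to 4 of the myofibroblast markers were higher with KD-2.

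Of 12 ES cell markers, 1 was higher and 0 lower with KD-1, and 1 was higher and 3 lower with KD-2, while 0 were lower there with library totals and 2 with each of the other 3 scalings. Their summed level was 5184 RPM in control, 5652 with KD-1 and 3827 with KD-2. Dppa5a, the highest of them in RPKM, had log2 fold changes of 0.35 and -0.57. Zfp42 was at 0.04 and -0.70, Utf1 at 0.69 and 1.17, and Lin28a at -0.24 and -0.55. Of 9 endoderm markers with enough reads, 2 were higher with KD-1 and 4 with KD-2 and none was lower, with a summed level of 388, 450 and 502 RPM over 10 markers. Among them Lamb1, the most abundant, was at 0.17 and 0.37, Col4a1 at 0.70 and 0.80, Col4a2 at 0.24 and 1.11, and Lama1 at 0.0051 and -0.44. No marker of any of these lists was at 0 in any library. The part of these cell types in the values of the 10 genes was not tested either.

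The genes nearest to Comp and to Fbln5 in their pair of log2 fold changes were taken from 12733 genes with an average of 100 reads or more, without the 10 matrix genes themselves. Nearest to Comp were Agtr2, Prelp, Ifit3b, Gbp3 and Isg15, at distances of 0.917 to 1.02 on the log2 scale. Of the 10 matrix genes, Postn was the nearest to Comp, at a distance of 0.959, which is nearer than Prelp at 0.987, and Tnc was the nearest to Fbln5, at 0.663. Agtr2 (an angiotensin II receptor) was at -2.08 and 0.67, and Prelp (a matrix proteoglycan) was at -1.79 and 1.05. Ifit3b, Gbp3 and Isg15, which are known interferon-induced genes, were at -2.75, -2.79 and -3.12 with KD-1 and at 0.30, 0.28 and 0.35 with KD-2. Nearest to Fbln5 were Tcta, Arsj, Pcdh20, Gstt1 and Sdpr, at distances of 0.0682 to 0.0930. Likeness was measured over these 2 fold changes only.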

How the data were processed

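Total RNA of 3 ES cell libraries was depleted of ribosomal RNA and sequenced as 50 nt reads. The authors trimmed the reads with Trim Galore 0.4.1, mapped them to mm10 with TopHat2 2.1.1, kept a mapping quality above 30, and deposited read counts of each gene, not normalized. The methods name featureCounts, whereas the submitters' processing notes name HTSeq and the deposited counts end in its summary lines. These lines hold 22.97 to 25.61% of reads and were left out. Which strand was counted is not given in the sources used here.

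Counts were divided by upper-quartile factors (edgeR 4.0.16, R 4.3.3), and log2 fold changes were computed after adding 0.5 reads, for genes with an average of 10 reads or more. Calls need a fold above 1.5. With 1 library per condition edgeR and DESeq2 1.42.0 served for scaling only. Intervals of a ratio, share or level are exact 95% intervals (Clopper-Pearson or Poisson), and cover counting error only. RPM and RPKM are from the scaled counts, with exon lengths of the GENCODE annotation of GRCm38, where 23336 genes matched by symbol and 655 by an older symbol. The fold change script was run on simulated counts that held counting error only and used the same scaling factors. That run checks the arithmetic and cannot show how far replicate libraries would differ. Python 3.11.15, scipy 1.17.1, numpy 2.4.6, pandas 2.3.3 and matplotlib 3.10.9 were used.

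The 10 genes and all lists were chosen with earlier results of these data known. The text names the 10 genes, Nup153, the highest and lowest gene of each list with KD-1 and KD-2 with an average of 100 reads or more, the most abundant markers, and the 5 other genes nearest to Comp and to Fbln5. Alternatives were 4 other scalings, a fold of 2, a pseudocount of 5 reads, no filter, and an average of 100 reads or more.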

Additional observations from a re-analysis of the deposited data

Results flagged for a closer look

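For each of the 10 genes the KD-1 library lay below control and the KD-2 library above it, so the values of both shRNAs lay in opposite directions. This difference was not tested, since each condition had 1 library and both comparisons share the control. The log2 fold change of KD-1 against KD-2 was -4.04 for Comp, -1.27 for Thbs1, -1.21 for Thbs2 and -1.03 for Thbs3. It was -2.69 for Postn, -1.02 for Sparc and -1.69 for Tnc. For the elastic fiber genes it was -1.87 for Fbln5, -0.98 for Fbn1 and -2.29 for Eln, the last from 60 and 272 reads.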

How the results depend on the processing

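Over 150 values of the 10 genes under other scalings or a pseudocount of 5 reads, 6 changed their side of 1.5-fold and 0 changed sign. With a fold of 2, 3 of the genes were lower with KD-1 and 2 were higher with KD-2. Of 16670 genes, 770 with KD-1 and 1212 with KD-2 passed that fold in either direction. The share in each direction was not computed at this fold, so nothing is read from the 3 and the 2. The median of the genes with KD-2 was 0.84 with library totals, and with KD-1 against KD-2 it was -1.54 with TMM, -1.58 with DESeq2's size factors and -1.65 with library totals. Library totals moved the median of all genes by 0.16 with KD-2 and by -0.17 with KD-1 against KD-2, and DESeq2's size factors moved the latter by -0.10. Over all genes, 2375 passed 1.5-fold with KD-1, 4547 with KD-2 and 5013 with KD-1 against KD-2. These counts were 770, 1212 and 1839 at a fold of 2, 5298, 7461 and 8080 with no filter on low counts, and 1028, 2852 and 3318 at an average of 100 reads or more, where fewer genes enter. No library can be left out, since each condition has 1. Depth limits Eln most, at 60 to 272 reads.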
